A study of Mus musculus with 16 samples.

Results

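The 33 genes described here encode proteins of T cells, of natural killer (NK) cells and of intraepithelial lymphocytes, the lymphocytes that sit between the epithelial cells of the gut. They were taken by name, as a list of mouse symbols, and no threshold on a measured value was used. The list was chosen with earlier results of these data known, so its counts beside those of all genes are descriptive. All 33 were present among the 55359 genes of the count table, and all 33 passed the filter on low counts in every main test. Ordered by role, they comprise 4 T cell receptor chains, 4 chains of the CD3 complex, 4 signalling proteins that act next to the receptor, 3 coreceptors, 7 other lymphocyte surface receptors, 2 NK receptors, 5 cytotoxic granule proteins and chemokines, 2 cytokine receptors and 2 genes of tissue retention and survival.

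RNA from the duodenum and the ileum of 8 adult male mice (C57BL/6N background, standard chow) was sequenced, which gave 16 libraries. All 8 mice carried the floxed alleles Neurog3f/f, and tissue was collected 18 weeks after tamoxifen. In 4 mice the Villin-CreERT2 transgene was also present (Neurog3f/f; Villin-CreERT2, called mutants: NFVCT27, NFVCT38, NFVCT153 and NFVCT190). The other 4 had the floxed alleles alone (Neurog3f/f, called controls: NF17, NF29, NF32 and NF152). Neurog3 encodes a transcription factor that endocrine precursors of the gut need, and CreERT2 is a recombinase that tamoxifen activates. The villin promoter is active in the intestinal epithelium, so the deletion was directed to epithelial cells, not to lymphocytes. The controls lacked the recombinase, the labels give no separate statement on tamoxifen for them, and neither the segment length nor the tissue layers are stated. An effect of the transgene or of its activation and an effect of losing Neurog3 cannot be told apart here. Each mouse gave both tissues, and values below follow the order in which the mice are named above.

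Library totals ran from 8213889 to 35076714 counts, and a single library held from 2 to 2287 counts of a given gene among the 33. Neurog3 itself had 8 to 37 counts in each control library and 0 counts in each of the 8 mutant libraries. The tissues matched their labels: Fabp6, the ileal bile acid binding protein, measured at most 0.373 CPM (counts scaled to a common library size) in the 8 duodenal libraries and at least 337.6 CPM in the 8 ileal ones, while Pdx1, a transcription factor of the duodenum and pancreas, measured at least 35.8 CPM in the duodenum and at most 2.79 CPM in the ileum. Several libraries or groups stood apart in genes of other cell types. In the ileum of control NF152 the 11 B cell markers summed to 179.9 CPM, against 15.5 to 20.3 CPM in the other 3 ileal controls and 12.0 to 19.3 CPM in the ileal mutants. The 10 smooth muscle markers summed to 2745 to 3949 CPM in ileal controls and 4698 to 6395 CPM in ileal mutants, without overlap. The 14 pancreatic acinar markers took 6.78 to 15.0% of the counts in duodenal controls and 1.83 to 19.1% in duodenal mutants.

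A T cell recognises antigen through a receptor of paired alpha and beta, or gamma and delta, chains. These chains cannot signal by themselves: the CD3 chains associated with them are phosphorylated by the kinase LCK, recruit the kinase ZAP70 and pass the signal to the adaptor LAT. The gut epithelium holds a dense population of intraepithelial lymphocytes, many of them CD8 positive and many with a gamma delta receptor, which carry granzymes and are held in place by the integrin alpha E beta 7 that binds E-cadherin of epithelial cells. NK cells and innate-like T cells share with them the receptors of the CD94 and NKG2D type, perforin and granzymes.

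The members called lower in the mutants of both tissues numbered 6 by edgeR: Cd3e, Lck, Prkch, Klrd1, Il21r and Gimap7. DESeq2 called 9 in both, these 6 among them, and limma-voom called 2, Lck and Il21r. Without a single duodenal library the count was 0 (mutant NFVCT38) to 3 (mutant NFVCT190), without a single ileal library it was 4 to 6, and with the smooth muscle score described later as a covariate in the ileum it was 0. RefSeq promoter entries (build GRCm38.p6) were at hand for Cd3e, Lck (2 start sites), Il21r and Gimap7, and the 250 bases before each start are shown because edgeR called these genes in both tissues. Prkch and Klrd1 had no entry. Capitals mark letters that match TGTGGT or its reverse ACCACA (bound by RUNX factors), AGGAAG or CTTCCT (ETS factors) and CAGGTG or CACCTG (E-box); matches may overlap other motifs and are letters only, not sites shown to be bound.
Cd3e, chr9:45009612-45009861, minus strand: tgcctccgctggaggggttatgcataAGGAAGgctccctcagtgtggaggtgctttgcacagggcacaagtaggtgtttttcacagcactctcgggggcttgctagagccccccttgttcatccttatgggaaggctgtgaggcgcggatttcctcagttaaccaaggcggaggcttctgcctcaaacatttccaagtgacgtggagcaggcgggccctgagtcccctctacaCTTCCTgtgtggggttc
Lck, chr4:129573642-129573891, minus strand: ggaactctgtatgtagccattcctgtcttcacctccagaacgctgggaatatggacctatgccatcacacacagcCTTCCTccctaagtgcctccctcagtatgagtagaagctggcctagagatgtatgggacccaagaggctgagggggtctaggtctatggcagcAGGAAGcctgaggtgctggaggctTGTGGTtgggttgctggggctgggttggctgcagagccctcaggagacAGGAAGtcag
Lck, chr4:129558373-129558622, minus strand: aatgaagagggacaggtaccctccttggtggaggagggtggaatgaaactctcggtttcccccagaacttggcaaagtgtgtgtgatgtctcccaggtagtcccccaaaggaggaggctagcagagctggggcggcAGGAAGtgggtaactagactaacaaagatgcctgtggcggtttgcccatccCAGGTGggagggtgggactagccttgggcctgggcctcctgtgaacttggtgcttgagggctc
Il21r, chr7:125603179-125603428, plus strand: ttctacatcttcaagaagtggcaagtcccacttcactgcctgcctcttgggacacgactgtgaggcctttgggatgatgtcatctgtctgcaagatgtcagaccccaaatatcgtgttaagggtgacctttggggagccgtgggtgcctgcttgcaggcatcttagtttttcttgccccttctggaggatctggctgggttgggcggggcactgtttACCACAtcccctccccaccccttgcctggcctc
Gimap7, chr6:48718371-48718620, plus strand: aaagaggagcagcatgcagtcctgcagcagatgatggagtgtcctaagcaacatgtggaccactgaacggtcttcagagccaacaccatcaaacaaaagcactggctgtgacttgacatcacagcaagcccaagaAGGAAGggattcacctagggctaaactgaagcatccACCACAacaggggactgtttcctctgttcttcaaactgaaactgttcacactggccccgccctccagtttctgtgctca
The shares were counted over 32851 promoters of this length, with 1 chromosome left out. Of these, 14% held the RUNX letters, 29.5% the ETS letters and 17.2% the E-box letters on either strand. Entries existed for 19 of the 33 genes, with 23 promoters; 12 of these held the RUNX letters, 14 the ETS letters and 10 the E-box letters. The letters CTTTGA of TCF and LEF factors stood in 3 of the 23 and in 13.8% of the 32851. AGATAA of GATA factors stood in 1 of the 23 and in 9.99% of the 32851.

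In the duodenum the lymphocyte genes measured lower in mutants. Of the 33, 8 were called lower and 0 higher by edgeR's quasi-likelihood test with Benjamini-Hochberg adjustment (adjusted p under 0.05; DESeq2 and limma-voom also called 0 higher), where 0.299% of the 14703 genes tested were called lower and 0.0952% higher. All 33 log2 fold changes were below 0 (50.1% of all genes), with a median of -1.14 against -0.000151 over all genes. For 25 of the 33, each of the 4 mutant libraries lay below each of the 4 controls, as for 2.98% of all genes, and 30 had an unadjusted p under 0.05 (8.71% of all genes). In the ileum, 10 of the 33 were called lower and 0 higher, where 1.51% of the 14951 genes tested were called lower and 1.77% higher. Again all 33 fold changes were below 0 (51.1% of all genes), the median was -1.0 (-0.00605 over all genes), 13 had no overlap (4.35% of all genes) and 26 had an unadjusted p under 0.05 (15.8% of all genes). In bulk tissue, fewer lymphocytes and less of each transcript per lymphocyte cannot be told apart. The 6 genes that edgeR called in both tissues compare with 30 of the 14257 genes tested in both (0.21%). This share was not counted for DESeq2 or limma-voom, so their 9 and 2 members called in both have no such comparison.

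**Figure D1:**
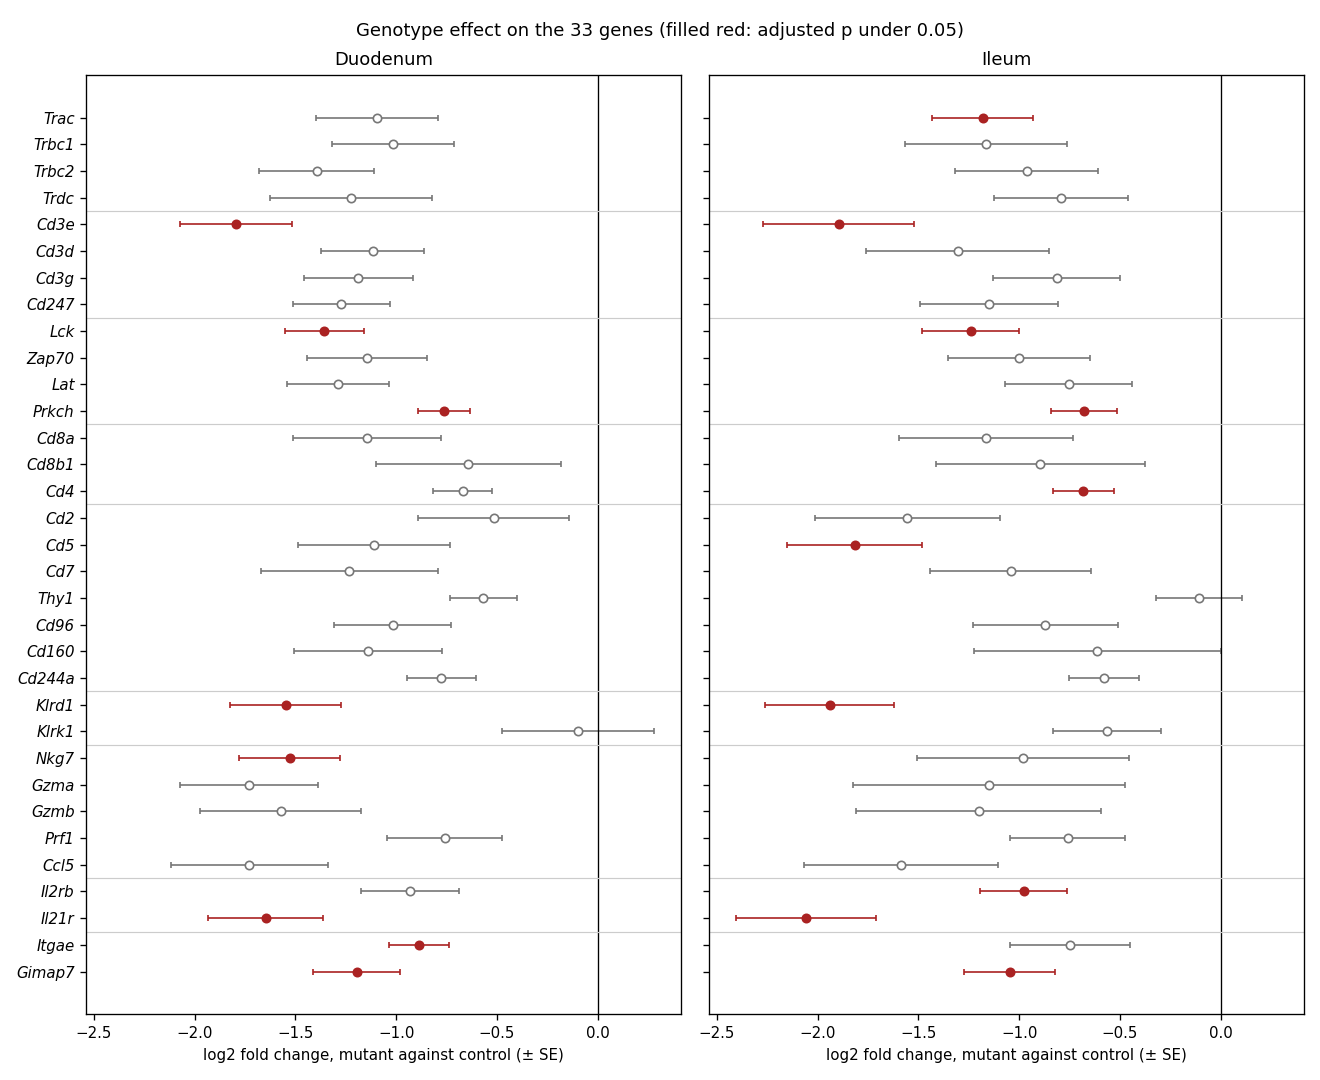
Log2 fold change of mutant against control (x axis, ± SE) for each of the 33 genes (rows, in role order, lines between roles) in the duodenum (left) and the ileum (right); filled red points have an adjusted p under 0.05. All points lie left of 0, with 8 filled in the duodenum and 10 in the ileum.

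Among the T cell receptor chains, the alpha chain gene Trac fell in the ileum. It did not pass the test in the duodenum, and the difference between the tissues was not called. In the ileum Trac measured 5.91, 6.51, 8.34 and 8.4 CPM in controls and 4.91, 2.07, 2.58 and 3.64 CPM in mutants, so each mutant lay below each control (log2 fold change -1.18, SE 0.25, adjusted p = 0.0179). In the duodenum it measured 7.33, 9.52, 12 and 4.9 CPM in controls and 5.87, 3.44, 3.73 and 2.64 CPM in mutants, where NFVCT27 lay above the lowest control, NF152 (log2 fold change -1.1, SE 0.30, adjusted p = 0.201). Trdc encodes the constant part of the delta chain, the mark of gamma delta T cells. It measured 4.73, 12.1, 7.97 and 4.63 CPM in duodenal controls and 4.61, 2.04, 4.02 and 1.65 CPM in duodenal mutants, where NFVCT27 lay just under the lowest control, NF152, and the controls themselves spread widely (log2 fold change -1.22, SE 0.40, adjusted p = 0.333). Ileal Trdc measured 6.91, 2.68, 6.8 and 2.8 CPM in controls, high in NF17 and NF32 and low in the other 2, and 3.39, 3.2, 2.24 and 2.46 CPM in the mutants (log2 fold change -0.79, SE 0.33, adjusted p = 0.255). The beta chain genes Trbc1 and Trbc2 are near-identical copies, so the split of reads between them is uncertain. Trbc2 went from a mean of 6.87 ± 1.08 CPM to 2.55 ± 1.04 CPM (SD, n = 4) in the duodenum and from 5.7 ± 1.5 to 3.09 ± 2.0 CPM in the ileum (adjusted p = 0.0696 and 0.191). For Trbc1 the log2 fold changes were -1.02 and -1.16, and neither was called.

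The CD3 chains carry the signal of the receptor into the cell, and Cd3e, the epsilon chain, had the lowest fold change of all 33 genes in the duodenum. Duodenal Cd3e measured 7.49, 7.47, 9.08 and 3.77 CPM in controls and 2.18, 1.57, 1.91 and 2.42 CPM in mutants. Every mutant lay below the lowest control, NF152, which itself stood under the other 3 (log2 fold change -1.8, SE 0.28, adjusted p = 0.0193). Ileal Cd3e measured 2.44, 4.02, 4.26 and 2.8 CPM in controls and 1.17, 0.314, 1.35 and 0.963 CPM in mutants, again without overlap (log2 fold change -1.9, SE 0.38, adjusted p = 0.0128). The other 3 chains were not called in either tissue. Cd3d, Cd3g and the zeta chain gene Cd247 had duodenal fold changes of -1.12, -1.19 and -1.27 with no overlap of the groups (adjusted p = 0.10, 0.105 and 0.054). In the ileum their fold changes were -1.31, -0.81 and -1.15, and NFVCT27 lay within the control range for each. Its Cd3g level, 9.12 CPM, compares with 2.83, 3.03 and 5.51 CPM in the other 3 ileal mutants.

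**Figure D2:**
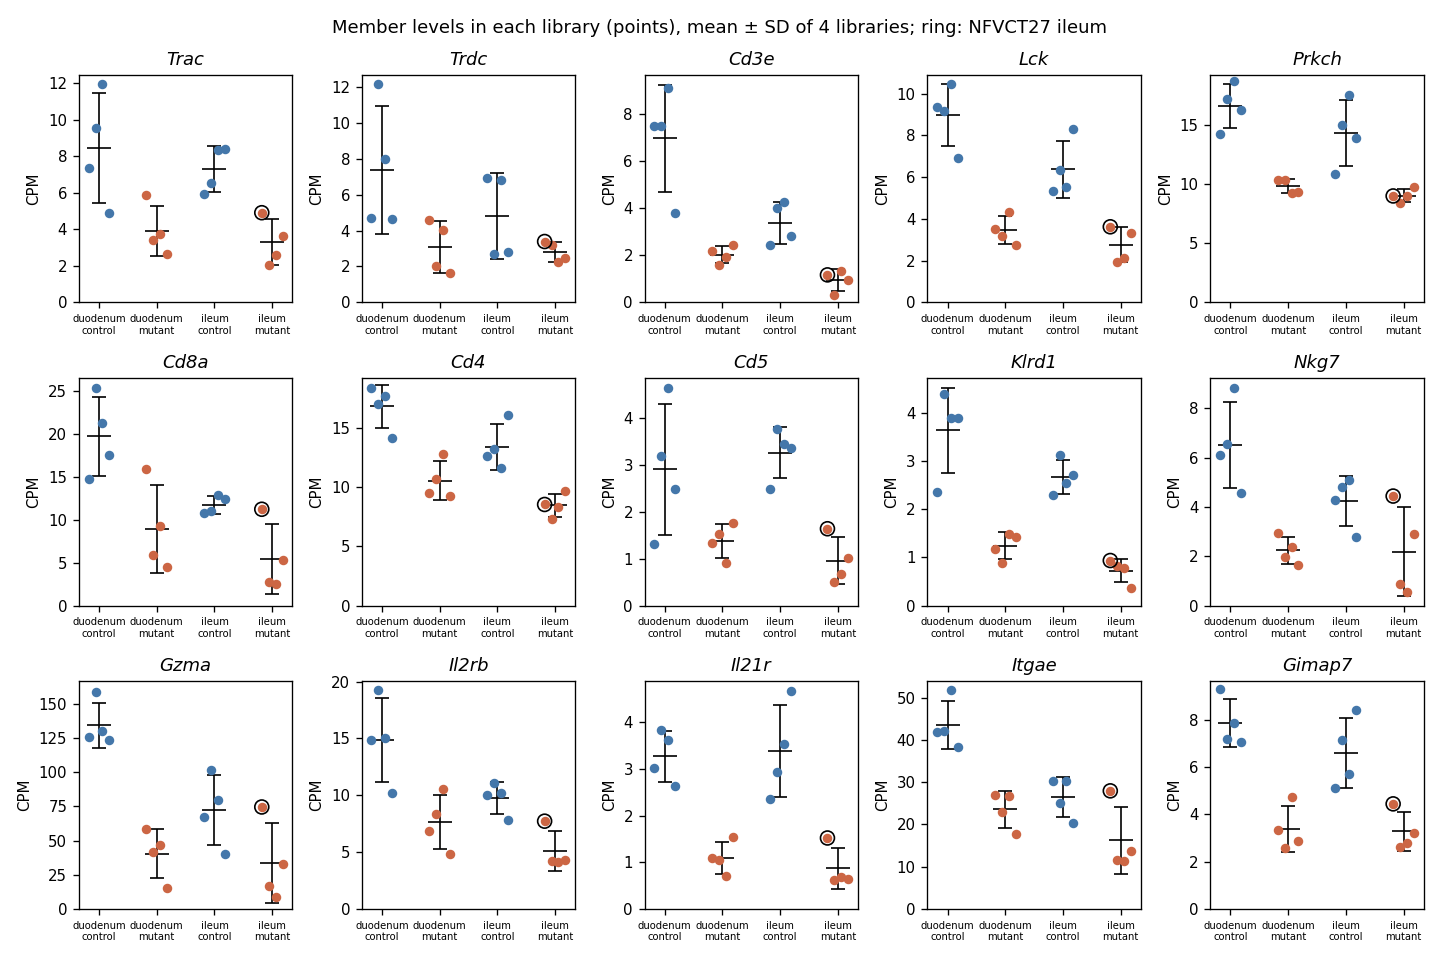
Level in CPM (y axis, from 0) of 15 of the genes in each library (points), by tissue and genotype (x axis), with mean ± SD of the 4 libraries of a group; the ring marks the ileum of NFVCT27. For Cd3e, Lck, Prkch, Cd4, Klrd1, Il21r and Gimap7 the mutant points lie under the control points in both tissues.

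Of the signalling proteins next to the receptor, Lck and Prkch fell in both tissues. LCK is the SRC family kinase bound to the CD4 and CD8 tails. Lck measured 9.37, 9.15, 10.5 and 6.9 CPM in duodenal controls and 3.52, 3.2, 4.34 and 2.75 CPM in duodenal mutants, the 2 groups being well apart (log2 fold change -1.36, SE 0.19, adjusted p = 0.0124, the lowest of the 33 genes in that tissue). Ileal controls measured 5.34, 6.34, 5.53 and 8.32 CPM and ileal mutants 3.62, 1.95, 2.13 and 3.32 CPM, without overlap (log2 fold change -1.24, SE 0.24, adjusted p = 0.0112). Prkch encodes protein kinase C eta, which T cells use but which epithelial and other cells also express. Its levels were 14.3, 17.2, 18.7 and 16.3 CPM in duodenal controls and 10.3, 10.4, 9.29 and 9.37 CPM in the mutants, which were tightly grouped (log2 fold change -0.76, SE 0.13, adjusted p = 0.0331). In the ileum they were 10.8, 15, 17.5 and 13.9 CPM in controls and 9.0, 8.42, 8.98 and 9.74 CPM in mutants, with no overlap and a smaller difference than for Lck (log2 fold change -0.68, SE 0.16, adjusted p = 0.0361). The kinase gene Zap70 and the adaptor gene Lat were not called. Zap70 went from 5.38 ± 0.327 to 2.36 ± 1.09 CPM in the duodenum and from 3.28 ± 0.871 to 1.69 ± 0.986 CPM in the ileum (SD, n = 4; adjusted p = 0.162 and 0.159). Lat had fold changes of -1.29 and -0.75 (adjusted p = 0.0603 and 0.253).

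The coreceptors bind the antigen-presenting molecules together with the receptor, CD8 on class I and CD4 on class II. Cd8a, the alpha chain that also forms the CD8 alpha homodimer of intraepithelial lymphocytes, measured 14.7, 25.3, 21.2 and 17.6 CPM in duodenal controls and 15.9, 5.88, 9.29 and 4.52 CPM in duodenal mutants. NFVCT27 stood within the controls and the other 3 mutants below them (log2 fold change -1.14, SE 0.37, adjusted p = 0.335). The ileum showed the same arrangement, with 10.7, 11, 12.9 and 12.4 CPM in controls and 11.2, 2.76, 2.47 and 5.3 CPM in the mutants (log2 fold change -1.16, SE 0.43, adjusted p = 0.236). Cd8b1, the beta chain, was low, at 0.251 to 2.21 CPM over the 16 libraries, and its fold changes of -0.64 (SE 0.46) and -0.90 (SE 0.52) did not pass the test. Cd4, of helper T cells and of some myeloid cells, measured 12.6, 13.2, 11.6 and 16.1 CPM in ileal controls and 8.53, 7.35, 8.31 and 9.68 CPM in ileal mutants. These groups did not overlap, and Cd4 fell in the ileum (log2 fold change -0.68, SE 0.15, adjusted p = 0.0244). Duodenal Cd4 measured 18.3, 17, 17.7 and 14.2 CPM in controls and 9.48, 10.7, 12.8 and 9.25 CPM in mutants, also without overlap, and missed the threshold (log2 fold change -0.67, SE 0.15, adjusted p = 0.0905).

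Among the 7 other surface receptors, Cd5 was called in the ileum and none in the duodenum. CD5 is an inhibitory receptor that tunes T cell receptor signalling and is low or absent on many unconventional intraepithelial lymphocytes. Ileal Cd5 measured 2.47, 3.75, 3.45 and 3.35 CPM in controls and 1.64, 0.502, 0.673 and 1.02 CPM in mutants, without overlap (log2 fold change -1.82, SE 0.34, adjusted p = 0.00882). In the duodenum it measured 1.3, 3.17, 4.63 and 2.48 CPM in controls, where NF17 was as low as the mutants, and 1.34, 1.51, 0.897 and 1.76 CPM in the mutants (log2 fold change -1.11, SE 0.38, adjusted p = 0.347). The adhesion receptor gene Cd2, whose product binds CD48 in the mouse, had the most unequal pair of values in this group, -0.52 (SE 0.38) in the duodenum and -1.56 (SE 0.46) in the ileum, and neither was called. Cd7 and Cd96, which are receptors of T and NK cells, had fold changes of -1.23 and -1.02 in the duodenum and -1.04 and -0.87 in the ileum. Cd160, a receptor of cytotoxic intraepithelial lymphocytes, measured 5.73 CPM in the ileum of NFVCT27, above all 4 ileal controls (2.76 to 3.81 CPM), and 0.337 CPM in that of NFVCT153. Thy1, which neurons and fibroblasts also express, was the member closest to 0 in the ileum (log2 fold change -0.11, SE 0.21). The SLAM family receptor gene Cd244a went from 7.85 ± 0.248 to 4.62 ± 0.89 CPM in the duodenum and from 7.59 ± 0.609 to 5.15 ± 0.964 CPM in the ileum (SD, n = 4), without overlap in either tissue and without a call (adjusted p = 0.0906 and 0.0922).

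Of the NK receptor genes, Klrd1 fell in both tissues and Klrk1 was not called in either. Klrd1 encodes CD94, which pairs with NKG2 chains to read the class I molecule Qa-1. Its level was 2.36, 4.39, 3.89 and 3.88 CPM in duodenal controls and 1.17, 0.873, 1.48 and 1.43 CPM in duodenal mutants (log2 fold change -1.55, SE 0.28, adjusted p = 0.0412). Ileal controls measured 2.29, 3.12, 2.54 and 2.72 CPM and ileal mutants 0.935, 0.816, 0.786 and 0.374 CPM (log2 fold change -1.94, SE 0.32, adjusted p = 0.00452, the lowest of the 33 genes in that tissue). NFVCT27 was the highest of the ileal mutants here and still lay below every ileal control. The groups did not overlap in either tissue. Klrk1, which encodes NKG2D, the receptor for stress-induced ligands, measured 0.815 to 1.29 CPM in duodenal controls and 0.419 to 1.43 CPM in duodenal mutants (log2 fold change -0.10, SE 0.38). The mutants thus spread on both sides of the controls. In the ileum its fold change was -0.56 (SE 0.27, adjusted p = 0.326). A test of whether Klrd1 and Klrk1 differed from each other was not made.

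Among the cytotoxic genes Gzma had the highest level per transcript length and Prf1 the lowest in the controls of both tissues. Nkg7 encodes a granule membrane protein. It measured 6.11, 6.54, 8.81 and 4.58 CPM in duodenal controls and 2.94, 1.98, 2.37 and 1.65 CPM in duodenal mutants, and fell there without overlap (log2 fold change -1.53, SE 0.25, adjusted p = 0.0299). In the ileum it measured 4.3, 4.82, 5.08 and 2.8 CPM in controls and 4.44, 0.879, 0.561 and 2.89 CPM in mutants, with 2 mutants within the control range (log2 fold change -0.98, SE 0.53, adjusted p = 0.427). Gzma, the serine protease granzyme A, measured 125, 159, 130.0 and 123 CPM in duodenal controls and 58.2, 41.5, 46.7 and 15.5 CPM in duodenal mutants. The groups were far apart in the duodenum, with NFVCT190 lowest, and the threshold was missed (log2 fold change -1.73, SE 0.34, adjusted p = 0.0927). Ileal Gzma measured 67.5, 102, 79.8 and 40.3 CPM in controls and 74.6, 17, 8.87 and 33.1 CPM in mutants, and NFVCT27 was at the level of the controls while NFVCT153 was lowest (log2 fold change -1.15, SE 0.67, adjusted p = 0.50). Granzyme B (Gzmb), perforin (Prf1), which forms the pore for granzymes, and the chemokine gene Ccl5 had duodenal fold changes of -1.57, -0.76 and -1.73, without overlap and without a call (adjusted p = 0.213, 0.424 and 0.14). Their ileal fold changes were -1.2, -0.76 and -1.59 (adjusted p = 0.419, 0.189 and 0.148).

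Both cytokine receptor genes fell in the ileum, and Il21r also in the duodenum. Il21r encodes the receptor for interleukin-21, a helper T cell cytokine, and is also expressed by B cells. It measured 3.01, 3.83, 3.61 and 2.64 CPM in duodenal controls and 1.09, 1.05, 0.695 and 1.54 CPM in duodenal mutants (log2 fold change -1.65, SE 0.29, adjusted p = 0.0376). Ileal controls measured 2.36, 2.94, 3.54 and 4.67 CPM, with the highest value in NF152, and ileal mutants 1.52, 0.628, 0.673 and 0.642 CPM (log2 fold change -2.06, SE 0.35, adjusted p = 0.00512), the lowest fold change of the 33 genes in that tissue. The groups were apart in both tissues, and NFVCT27 stood above the other 3 ileal mutants. Il2rb encodes the beta chain shared by the receptors of interleukin-2 and interleukin-15, the cytokine that maintains intraepithelial lymphocytes. Ileal Il2rb measured 10, 11.1, 10.2 and 7.81 CPM in controls and 7.71, 4.21, 4.15 and 4.28 CPM in mutants, where NFVCT27 lay just under the lowest control, NF152 (log2 fold change -0.98, SE 0.22, adjusted p = 0.0228). In the duodenum it measured 14.8, 19.2, 15 and 10.2 CPM in controls and 6.88, 8.38, 10.5 and 4.85 CPM in mutants, which overlapped at 1 library of each group (log2 fold change -0.93, SE 0.24, adjusted p = 0.166).

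Itgae encodes the alpha E chain, CD103, of the integrin that retains lymphocytes in the epithelium. It measured 41.9, 42.1, 51.7 and 38.3 CPM in duodenal controls and 26.8, 22.8, 26.7 and 17.7 CPM in duodenal mutants, and fell there without overlap (log2 fold change -0.89, SE 0.15, adjusted p = 0.0328). Ileal Itgae measured 30.3, 25.2, 30.3 and 20.2 CPM in controls and 27.9, 11.7, 11.3 and 13.8 CPM in mutants. NFVCT27 was within the ileal controls and the other 3 mutants were far below them, and the gene was not called (log2 fold change -0.75, SE 0.30, adjusted p = 0.261). Gimap7 belongs to the GTPases of immunity-associated proteins, which support lymphocyte survival. Its level was 9.29, 7.19, 7.88 and 7.06 CPM in duodenal controls and 3.36, 2.56, 4.75 and 2.86 CPM in duodenal mutants (log2 fold change -1.19, SE 0.22, adjusted p = 0.0444). Ileal controls measured 5.12, 7.14, 5.71 and 8.4 CPM and ileal mutants 4.44, 2.64, 2.81 and 3.21 CPM (log2 fold change -1.05, SE 0.22, adjusted p = 0.0197). The 2 genotypes did not overlap for Gimap7 in either tissue.

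The duodenal calls depended on single libraries. Without control NF17, NF29, NF32 or NF152 the number of members called lower was 1, 1, 1 and 3, and without mutant NFVCT27, NFVCT38, NFVCT153 or NFVCT190 it was 3, 0, 3 and 6, against 8 with all libraries. Lck kept its call in 6 of these 8 fits (lost without NF17 or NFVCT38, adjusted p up to 0.0664). Itgae kept it in 3, Cd3e and Nkg7 in 2, Klrd1, Il21r and Gimap7 in 1 and Prkch in 0, with adjusted p up to 0.128, 0.0977, 0.121, 0.134, 0.134, 0.173 and 0.103. All 8 genes stayed below 0 in each of these fits. In the mutant duodenum the macrophage and dendritic cell markers were also low, at 226.6 to 383.0 CPM summed over 14 genes against 401.5 to 421.7 CPM in controls, without overlap. EdgeR called 0 of these 14, DESeq2 called 1, 6 had an unadjusted p under 0.05, and their part in the result was not tested. In the duodenum all 10 epithelial markers (median log2 fold change 0.20) and all 10 smooth muscle markers (median 0.41) were above 0. Neither list had an edgeR call, and DESeq2 called 2 epithelial and 0 smooth muscle markers higher. Epithelial sums overlapped, at 9300 to 12327 CPM in controls and 8406.5 to 15701 CPM in mutants. The part of these markers in the duodenal result was not tested. With the pancreatic acinar score as a covariate 4 members were called (Cd3e, Cd3g, Lck and Itgae), and with the acinar genes taken out before scaling the same 8 were called. Without NF17 and NFVCT190, the control and the mutant of highest acinar share, a choice made after the data were seen, 1 member was called, Gzma.

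In the ileum 5 genes kept their call without any single library: Cd3e, Lck, Cd5, Klrd1 and Il21r (adjusted p up to 0.0437, 0.0425, 0.0326, 0.016 and 0.0264). Gimap7 kept it in 6 of 8 fits, Trac and Cd4 in 5, Il2rb in 3 and Prkch in 1, with adjusted p up to 0.0754, 0.0613, 0.087, 0.081 and 0.116. Without control NF17, NF29, NF32 or NF152 the members called numbered 9, 9, 7 and 6, and without mutant NFVCT27, NFVCT38, NFVCT153 or NFVCT190 they numbered 16, 5, 8 and 8, against 10 with all libraries. NF152, the control with high B cell markers, was the highest ileal control for 13 of the 33 genes and the lowest for 10. Its sum over the 33 genes, 248.9 CPM, was the lowest of the ileal controls. The smooth muscle markers, of which 6 of 10 were called higher in ileal mutants, could not be separated from genotype. Tagln, Cnn1 and Des, which encode proteins of the contractile apparatus and its filaments, rose by 0.70, 0.92 and 0.97 on the log2 scale (adjusted p = 0.00201, 0.00509 and 0.00942). With their score as a covariate, 0 of the 33 genes were called, 4 had an unadjusted p under 0.05, 27 were below 0, the median was -0.34 and the lowest adjusted p was 0.369; over all genes this fit called 16. Muscle content and genotype thus cannot be told apart as the source of the ileal values. Epithelial markers overlapped between the genotypes in the ileum, at 12213 to 15098 CPM in controls and 13101 to 15642 CPM in mutants, with 1 of 10 called, Krt18, which rose by 0.57 and kept its call in 2 of the 8 fits without 1 library.

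Within the ileal mutants, the library of NFVCT27 stood apart. It was the highest of the 4 for 27 of the 33 genes, and 18 of its genes lay within the range of the ileal controls. Its median level over the 33 genes was 79.0% of the control mean, against 32.8, 33.4 and 49.9% in NFVCT38, NFVCT153 and NFVCT190. The 33 genes summed to 258.8 CPM in NFVCT27 and to 100.5, 91.5 and 150.2 CPM in NFVCT38, NFVCT153 and NFVCT190, where ileal controls summed to 248.9 to 336.3 CPM. For 14 of the genes, Klrd1, Cd3e, Prkch and Lck among them, NFVCT27 lay below every ileal control. Without NFVCT27 the median ileal fold change was -1.38, and Cd3d, Cd3g, Cd7, Cd8a, Cd96, Itgae, Ccl5 and Trbc2 were called in addition, while Prkch and Cd4 were not. In the duodenum of the same mouse the median was 50.1% of the control mean, beside 40.4, 48.4 and 34.9% in NFVCT38, NFVCT153 and NFVCT190. Duodenal sums were 394.7 to 537.7 CPM in controls and 118.0 to 244.9 CPM in mutants.

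**Figure D3:**
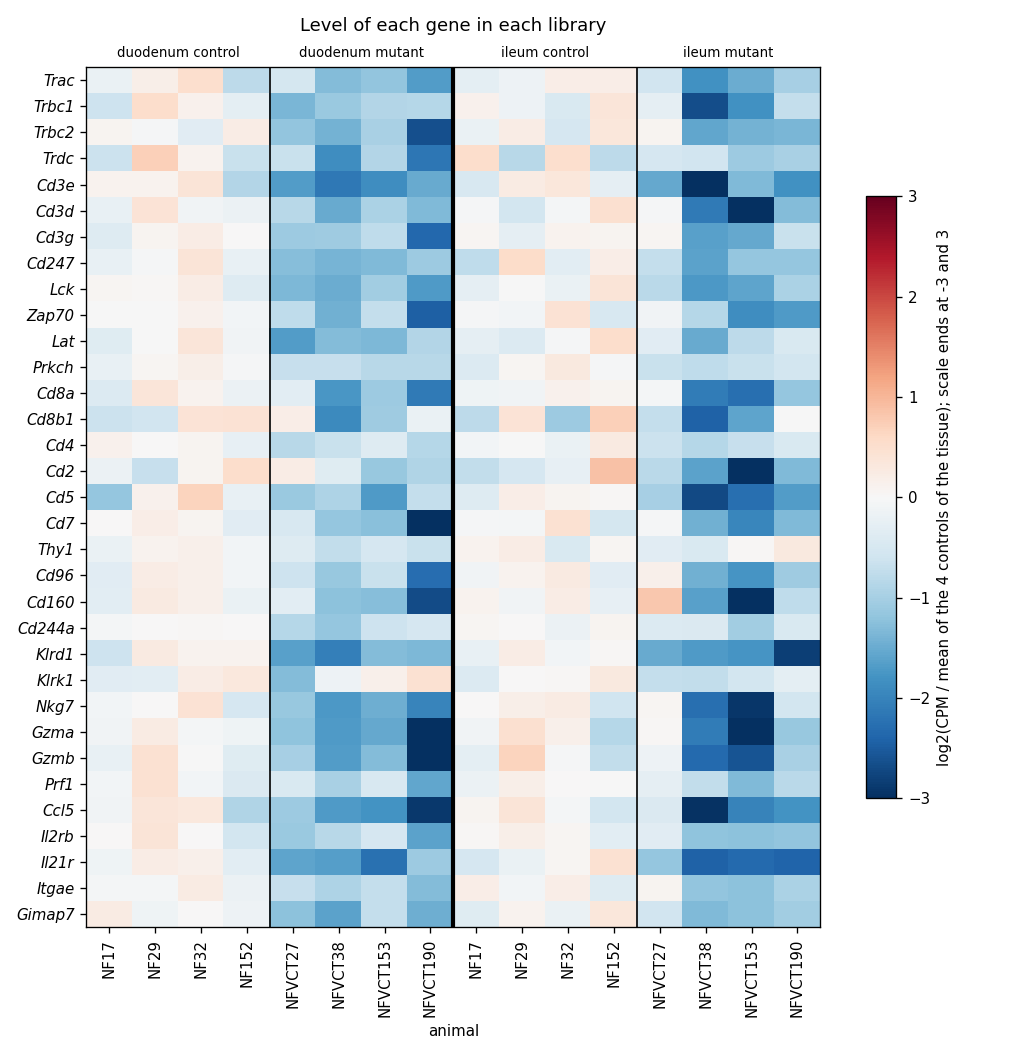
Colour shows log2 of each gene's CPM over the mean of the 4 controls of the same tissue (scale ends at -3 and 3) for the 33 genes (rows) in the 16 libraries (columns, by tissue, genotype and animal). Mutant columns are mostly blue, and the ileal column of NFVCT27 is paler than those of the other 3 ileal mutants.

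**Figure D4:**
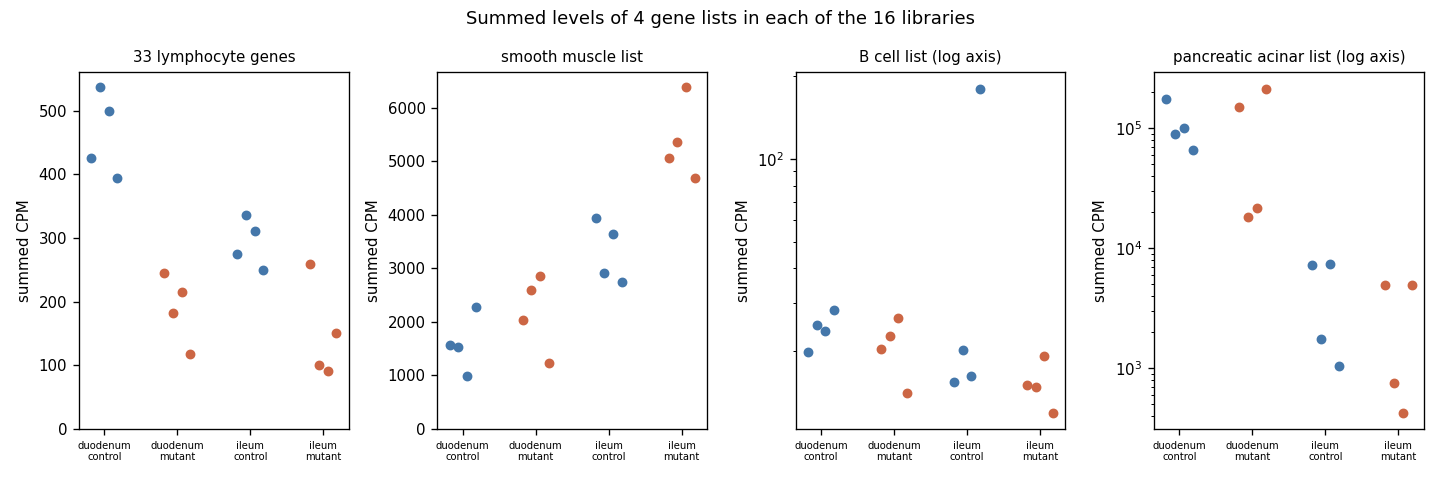
Summed CPM (y axis, logarithmic for the B cell and acinar lists) of the 33 genes and of the smooth muscle, B cell and pancreatic acinar markers in each library (points), by tissue and genotype (x axis). The 33 genes sum to 118.0 to 244.9 CPM in duodenal mutants and to 394.7 to 537.7 CPM in duodenal controls, and smooth muscle sums of the ileal genotypes do not overlap.

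Other genes of the same pathways were examined as 7 lists. In the duodenum, edgeR called 0 of 24 tested genes of T cell receptor signalling (20 below 0, median -0.63), where 17 had an unadjusted p under 0.05, DESeq2 called 7 lower and limma-voom 1. It also called 0 of 11 lymphocyte transcription factors (median -0.41), 0 of 10 further cytotoxic and NK receptor genes (-0.74) and 0 of 16 homing and adhesion genes (-0.25). Likewise it called 0 of 14 receptors of the common gamma chain and interleukin-12 families (-0.37) and 0 of 7 other GIMAP genes (-0.40). In these 5 lists, in this order, 4, 8, 6, 5 and 4 genes had an unadjusted p under 0.05, DESeq2 called 1, 3, 3, 1 and 2 genes lower and limma-voom called 0. Of 5 gamma delta receptor segments tested, 1 was called in the duodenum, Tcrg-C2 (log2 fold change -1.34, SE 0.25, adjusted p = 0.0471), and it lost the call in each of the 8 fits without 1 library. In the ileum, 4 of 24 receptor signalling genes fell (median -0.81). Among them were the adaptor genes Lcp2, which went from 15.4 ± 0.276 to 7.66 ± 0.961 CPM (SD, n = 4; log2 fold change -1.03, SE 0.14, adjusted p = 0.000865), and Grap2 (log2 fold change -1.18, SE 0.22, adjusted p = 0.00985). Lcp2 is also expressed by myeloid cells.

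Of the homing genes 5 of 16 fell in the ileum (median -0.68). They included the chemokine receptor genes Ccr2 (log2 fold change -0.96, SE 0.17, adjusted p = 0.0072) and Ccr7, which guides naive lymphocytes into lymphoid tissue (log2 fold change -2.31, SE 0.50, adjusted p = 0.020). CCR2 is also carried by monocytes and macrophages. GIMAP genes numbered 3 of 7 called lower there (Gimap8, Gimap4 and Gimap9, -1.05, -0.89 and -0.72), and Gimap9 kept its call in 2 of the 8 fits without 1 library (adjusted p up to 0.132). A single gene was called in each of 4 further lists: Ikzf3, a lymphocyte transcription factor (log2 fold change -1.01, SE 0.23, 1 of 10), Slamf7, a receptor of NK and other immune cells (log2 fold change -0.63, SE 0.13, 1 of 9), Il2rg, the common gamma chain (log2 fold change -0.98, SE 0.23, 1 of 14), and the gamma chain segment Tcrg-C1 (log2 fold change -1.3, SE 0.28, 1 of 5). Without 1 library Il2rg kept its call in 3 of 8 fits, Ikzf3 in 4, Tcrg-C1 in 5, Ccr7 and Gimap4 in 6 and Slamf7 in 7, while Lcp2, Grap2, Ccr2 and Gimap8 kept it in all 8. In ileal control NF152 the GIMAP, receptor signalling and transcription factor lists summed to 120.6, 347.8 and 232.2 CPM. The other ileal controls reached at most 81.0, 288.7 and 179.5 CPM. For the gamma delta segments NF152 had the lowest sum of the ileal controls, 52.2 CPM. No gene of the 7 lists was called higher in either tissue by edgeR, DESeq2 or limma-voom. In the marker lists, 1 of 7 follicle genes, Ltb (log2 fold change -1.76, SE 0.38), and 1 of 14 macrophage and dendritic cell genes, Cx3cr1 (log2 fold change -0.54, SE 0.14), fell in the ileum. They kept the call in 3 and 1 of the 8 fits that left out 1 library (highest adjusted p 0.0859 and 0.142). Of the 7 follicle genes, 3 in the ileum and 2 in the duodenum had an unadjusted p under 0.05. DESeq2 called 2 and 1 of them lower. Of the 14 macrophage and dendritic cell genes 13 were below 0 in the ileum, 8 had an unadjusted p under 0.05 and DESeq2 called 4 lower. Their ileal sums were 344.8 to 429.6 CPM in controls and 302.5 to 385.8 CPM in mutants, which overlapped, and their part in the ileal result was not tested. In the B cell, plasma cell, mast cell and innate lymphoid cell lists edgeR and limma-voom called 0 genes in either tissue and DESeq2 1, an innate lymphoid gene that was higher in the ileum. At most 1 gene of each of these lists had an unadjusted p under 0.05 in a tissue. With the filter on low counts only 3 of 11 B cell markers in the duodenum and 4 of 11 in the ileum could be tested, and Fcer2a was at 0 in all 4 duodenal mutants. Of the B cell markers tested, 2 of 3 were below 0 in the duodenum (median -0.0051). In the ileum 4 of 4 were below 0 (median -1.15, lowest -3.84), where control NF152 had the high B cell sum given above. The part of B cells in the ileal result was not tested. Ileal plasma cell sums ran from 3873 to 9613 CPM in controls and from 6837 to 9148 CPM in mutants, so these groups overlapped. Mast cell and innate lymphoid cell markers, lists that share Kit, were higher in the ileal mutants without overlap of the sums. The 8 mast cell genes summed to 39.1 to 49.9 CPM in ileal controls and 50.6 to 64.2 CPM in ileal mutants. The 12 innate lymphoid genes summed to 96.5 to 123.1 CPM in ileal controls and 126.7 to 152.5 CPM in ileal mutants, and the part of either list in the result was not tested.

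The genotype effects of the 2 tissues were compared by an interaction term over all 16 libraries. Of the 33 genes 0 were called, and 0 had an unadjusted p under 0.05; over all 15882 genes 0.0441% were called and 4.41% had an unadjusted p under 0.05. DESeq2 and limma-voom also called 0 of the 33. The differences (ileum minus duodenum) ran from -1.02 for Cd2 (SE 0.64) to 0.60 for Gzma (SE 0.77), and the lowest unadjusted p was 0.095, for Thy1. With the animal as a block 0 were called and 1 had an unadjusted p under 0.05. The standard errors, 0.20 to 0.77, on the log2 scale, limit what could be detected.

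Control ileum was set against control duodenum to give the levels along the normal small intestine. Of the 33 genes, 11 were called lower in the ileum and 1 higher, where 18.7% of the 14976 genes tested were called lower and 17.1% higher. Values below 0 were found for 28 of the 33 (48.7% of all genes). The 11 were Ccl5 (-1.53), Cd3e (-1.06), Cd7 (-1.04), Gzmb (-0.94), Gzma (-0.90), Prf1 (-0.83), Cd8a (-0.74), Zap70 (-0.73), Itgae (-0.71), Il2rb (-0.60) and Cd3g (-0.50), all as log2 fold changes. The granule genes Gzma, Gzmb and Prf1, the CD8 alpha chain gene and Itgae were among these 11. Cd4 (-0.32, adjusted p = 0.0915), Trac (-0.19) and Cd5 (0.17) were not called, and whether they differed from the called genes was not tested. Without NF17 or without NF32, Gzma, Gzmb and Prf1 were not called. Klrk1 alone was higher in the ileum, at 1.72, 2.32, 2.36 and 2.8 CPM against 0.815, 0.84, 1.2 and 1.29 CPM in the duodenum, without overlap (log2 fold change 1.12, SE 0.29, adjusted p = 0.00901). The levels of Ccl5, the largest difference, were 26.7, 36.9, 35.3 and 15.4 CPM in the duodenum and 10.4, 12.9, 9.43 and 6.75 CPM in the ileum, and every ileal control lay below every duodenal control (log2 fold change -1.53, SE 0.29, adjusted p = 0.00324). Each mouse gave both tissues, and with the animal as a block Nkg7 was called as well, which made 12 lower and 1 higher. Ccl5, Cd7, Cd8a, Itgae and Klrk1 kept their call without any single mouse. Without NF17, NF29, NF32 or NF152, 5, 7, 6 and 10 genes were called lower. Markers of other cell types also differed between the control tissues. In the ileum 9 of 10 smooth muscle markers (median log2 fold change 1.01) and 5 of 10 epithelial markers (median 0.40) were called higher. All 14 pancreatic acinar markers were called lower there (median -4.53). The part of these cell types in the tissue difference of the 33 genes was not tested.

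**Figure D5:**
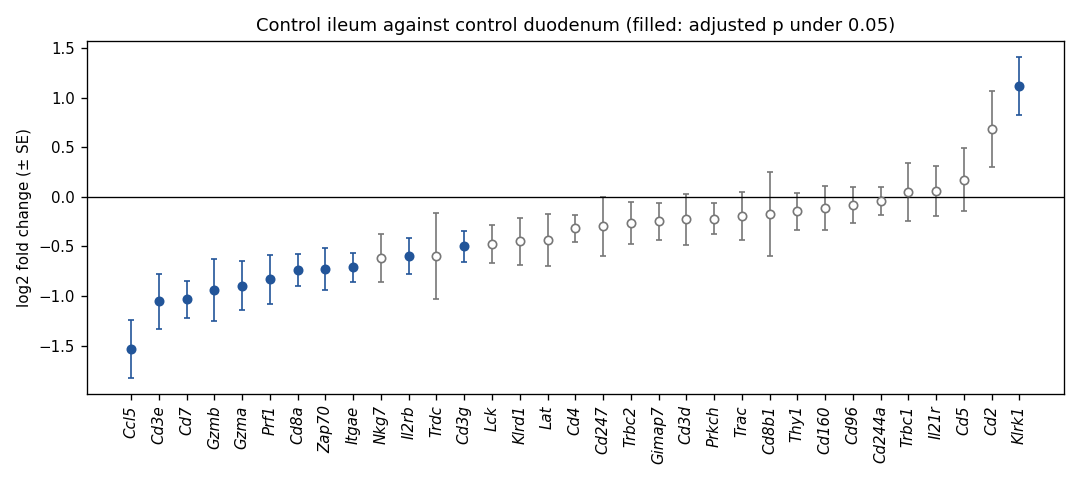
Log2 fold change (y axis, ± SE) of control ileum against control duodenum for the 33 genes (x axis, ordered by value); filled points have an adjusted p under 0.05. Filled points at the left are the 11 genes lower in the ileum and the filled point at the right is Klrk1.

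Divided by transcript length (all exons of a gene merged), Gzma had the highest level of the 33 genes in every group, 134 ± 16.5 CPM per kilobase (SD, n = 4) in duodenal controls, 40.3 ± 17.9 in duodenal mutants, 71.9 ± 25.4 in ileal controls and 33.2 ± 29.1 in ileal mutants. In duodenal controls it was followed by Ccl5 (29.8 ± 10.3), Gzmb (28.7 ± 7.67) and Cd7 (19.7 ± 2.98). The ranges of Ccl5 and Gzmb overlapped, those of Gzma and Ccl5 did not. From Trbc2 (9.92 ± 1.56) down to Cd247 (0.571 ± 0.123) the ranges of neighbours overlapped at each step, so neighbours are not resolved, while genes farther apart in this order, such as Trbc2 and Lck, did not overlap. Klrk1 was lowest (0.145 ± 0.0343). In the ileal mutants every neighbouring pair overlapped.

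Ratios between members within a library were compared to see whether the make-up of the lymphocyte transcripts differed, in 10 comparisons with exact two-sided permutation tests, where 4 against 4 cannot give a p under 0.0286. None passed after adjustment. The log2 ratio of Itgae to Cd3e was 0.82 higher in duodenal mutants and 1.12 higher in ileal mutants (exact p = 0.0571 in each tissue, adjusted p = 0.286). In the duodenum it was 2.48, 2.49, 2.5 and 3.34 in controls and 3.6, 3.84, 3.80 and 2.84 in mutants, where control NF152 and mutant NFVCT190 crossed. In the ileum it was 3.63, 2.63, 2.82 and 2.84 in controls and 4.51, 5.08, 3.02 and 3.80 in mutants. The log2 ratio of Cd8a to Cd4 in mutants minus that in controls was -0.61 in the duodenum and -0.72 in the ileum (exact p = 0.229 in each, adjusted p = 0.571), with NFVCT27 above all controls in both tissues. Trdc to Trac differed by -0.17 in the duodenum and 0.56 in the ileum (exact p = 0.571 and 0.286). Gzma to Cd3e differed by -0.16 and 0.45, and Cd8a to Cd8b1 by -0.64 and -0.44, with exact p from 0.343 to 0.829. A p that misses the threshold does not show that the ratios were equal.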

How the data were processed

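Per the file headers and the values, what the authors deposited are unnormalised read counts, 1 row per Ensembl gene and 1 column for each of 16 libraries. The tools in the submitters' processing notes include STAR 2.5.3a, HTSeq 0.6.1p1, Bowtie2 2.2.8, cutadapt 1.10 and bcl2fastq 2.20.0.422, with build mm39. Libraries were stranded, depleted of ribosomal RNA and amplified by PCR, per the labels' protocols. Neither the annotation release nor the strand setting of the counting is given in the sources used here. Symbols came from a table of Ensembl identifiers (52083 of 55359 matched, 98.3% of counts). The members, the context and marker lists and the tests were chosen with earlier results of these data known.

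The tests ran in edgeR 4.0.16 (R 4.3.3) with TMM scaling, filterByExpr and the robust quasi-likelihood F test, with p-values adjusted by Benjamini-Hochberg over all genes tested. Calls required an adjusted p under 0.05, and every adjusted p of a gene comes from this test unless another is named. Alternatives used DESeq2 1.42.0 and limma-voom (limma 3.58.1), other scaling, no filter, covariates and leaving out each library. CPM was computed from the counts with TMM factors over all 16 libraries, so it is on 1 scale in both tissues. Log2 fold changes use a prior count of 0.125. Genotype was tested within each tissue on 8 libraries. The 2 libraries of a mouse shared deviations (correlation of deviations from the group means over genes 0.117 to 0.378 in the 8 animals). This correlation was above the highest with any other animal in all but NFVCT190, 0.162 against 0.253. Where both tissues entered, the main fits had no term for the animal, and the animal as a block was an alternative. Within groups, every pair of libraries differed by more than sampling noise. The code was tested on simulated counts. Per-library values are given for Cd3e, Trac, Trdc, Cd8a, Cd4, Gzma and Itgae and for each called member, and up to 3 called genes of smallest p of each context list are named, except for genes not reported here. Ltb, Cx3cr1, Krt18, Tagln, Cnn1 and Des are named from the marker lists by the same rule, and other members by role.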

Additional observations from a re-analysis of the deposited data

Results flagged for a closer look

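In 132 sets of 4 libraries (33 genes in 4 groups), 6 held a value far from the other 3. For independent sets chance gives about 1 in 20, and this number is no more than that rate gives. The sets share libraries, so they are not independent, and this rate cannot tell whether chance gave the 6 values. Of these, 4 are the ileum of mutant NFVCT27, always as the highest value. Trbc2 measured 6.08 CPM there against 1.95 to 2.19 CPM in the other ileal mutants. Il2rb measured 7.71 CPM against 4.15 to 4.28 CPM, Il21r 1.52 CPM against 0.628 to 0.673 CPM, and Itgae 27.9 CPM against 11.3 to 13.8 CPM. In the ileum of mutant NFVCT153, Cd244a was lowest, at 3.70 CPM against 5.56 to 5.73 CPM. In the duodenum of control NF29, Cd3d was highest, at 4.39 CPM against 2.85 to 3.06 CPM.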

How the results depend on the processing

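Of 33 genes, 33 stayed below 0 in the duodenum and in the ileum under relative log expression scaling, DESeq2, limma-voom, no filter and 1 fit over 16 libraries. DESeq2 called 23 of them in the duodenum (310 genes in all), no filter 13 (169) and limma-voom 5; 1 fit over 16 libraries called 10 (151 in all). In the ileum no filter called 24 of the 33 (1096 in all), DESeq2 12 (875 in all) and limma-voom 11. For limma-voom the counts over all genes are not given here. The acinar covariate gave 4 duodenal calls among the 33; leaving out both libraries of highest acinar share, chosen after seeing the data, gave 1 (31 genes in all). With the smooth muscle covariate 0 of the 33 and 16 genes in all were called in the ileum, and 6 genes turned positive: Lat (0.0051), Cd8b1 (1.49), Cd2 (0.62), Thy1 (0.039), Cd160 (0.0095) and Klrk1 (0.070). The cause of these shifts was not tested.

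Without single libraries, 0 to 6 of the 33 were called in the duodenum (27 to 61 genes in all) and 5 to 16 in the ileum (272 to 472). In these fits duodenal Klrk1 ran from -0.26 to 0.13, positive without control NF152 (0.048) or mutant NFVCT27, and ileal Thy1 from -0.27 to 0.0043, positive without mutant NFVCT38. For the difference between tissues, 7 genes in all were called, 38 by DESeq2, 15 with no filter, 16 with the animal as replicate block and 1 to 9 without single mice, 0 of them among the 33. Between control tissues, 5 to 10 of the 33 were lower without single mice (3443 to 4787 genes in all). Members called lower in both tissues numbered 6, 2 by limma-voom, 12 with no filter, 2 with the acinar covariate, 0 with the smooth muscle covariate or without both libraries of highest acinar share, and 0 to 6 without single libraries. The block changed no other call than that of Nkg7. In the duodenum the difference in the ratio of Trdc to Trac ran from -0.35 to 0.020 (positive without control NF29) and that of Gzma to Cd3e from -0.34 to 0.34 (positive without control NF152, 0.068, or mutant NFVCT190). Genes near 1 CPM had few counts per library, which limits their precision, and intervals between mice rest on 4 per group.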
